A study of Drosophila melanogaster with 6 samples.

Results

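The genes described here carry histamine transmission of the fly eye: Hdc, CarT, t (tan), e (ebony), HisCl1, ort and Balat. They were chosen by symbol, 7 names in all, and 6 of them have a row among the 13541 genes of the table used. Balat was not analysed here. All 6 were tested by the authors and could be followed in every library. RNA of adult heads of Drosophila melanogaster was compared between the line M22-3, described as miR-210 mutant, and w1118, the white-eyed laboratory strain that served as control, with 3 samples per genotype. The labels give no age, sex, rearing or collection time, do not say how the mutant was made, and do not say whether it has a w1118 background. The white gene w was near 0 in both genotypes, with authors' means of 2.46 in mutant heads and 2.01 in control heads.

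Histamine is the transmitter that fly photoreceptors release onto the first visual neurons. Hdc makes it from histidine, and the transporter lovit fills synaptic vesicles with it. Released histamine opens the chloride channels HisCl1 and ort, is taken up by glia and is joined there to beta-alanine by the enzyme ebony, giving carcinine. Carcinine returns to the photoreceptor through CarT, and tan splits it back into histamine and beta-alanine, which Balat carries.

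The deposited table gives 1 mean of normalized counts per genotype, and the counts of single libraries were recovered from these means. A normalized count is a number of reads divided by the size factor of its library. The libraries have no replicate number and are called deepest, middle and shallowest within their genotype. In genes recovered in all 6 libraries they hold 9194231, 7406261 and 6257409 reads in the mutant and 16462836, 9535336 and 8915003 in the control. The deepest library of each genotype stood apart for some neuronal genes, such as the GABA receptor gene Rdl. It had 1142 normalized counts in the deepest mutant library and 229.9 and 138 in the others, against 2276 in the deepest control library and 311 and 430.4 in the others. The labels do not tell whether the samples are separate collections of flies, and a p-value here therefore covers only sample-to-sample spread, which could be technical. mir-210 itself lies on X from 18128219 to 18128318. No value for it was analysed here, so its loss in the mutant was not checked. CR32553, the noncoding RNA listed beside it, was near 0 in mutant heads, at a mean of 5.80, against 444 in control heads (authors' means). It is a separate transcript, and its level does not show whether mir-210 is lost.

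In mutant heads the transcripts that make and package histamine were lower, and so was 1 of the 2 histamine-gated channels. Hdc fell 2.66-fold, HisCl1 fell 1.80-fold, and lovit, which is a partner gene and not one of the 7 names, fell 3.81-fold. The transcripts of the carcinine cycle, CarT, tan and ebony, and the receptor gene ort did not pass the test. At an adjusted p under 0.05 the authors called 2 of the 6 genes, both lower in the mutant. Among all 11155 tested genes 4.46% were called and 1.89% were called lower. The libraries of the 2 genotypes did not overlap for Hdc and HisCl1, both lower in the mutant, and overlapped for the other 4. Among all tested genes that were recovered, 18.3% did not overlap and 9.21% did so with the mutant lower.

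**Figure D1:**
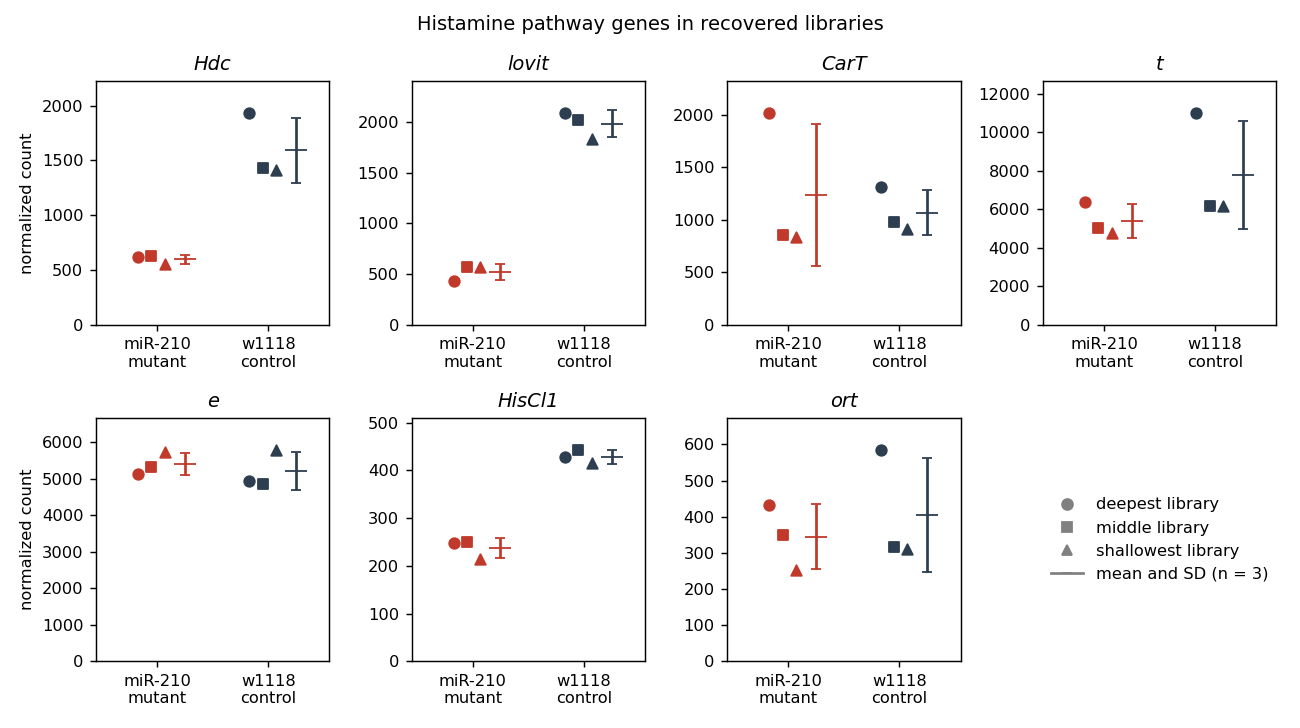
Normalized counts (vertical axes from 0) of each gene in the 3 miR-210 mutant libraries (red, left) and the 3 w1118 control libraries (dark, right), with the mean and SD of each genotype and a symbol for each library. Mutant libraries lie below all control libraries for Hdc (552 to 623 against 1412 to 1935), lovit and HisCl1, while the genotypes overlap for CarT, t, e and ort.

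Hdc encodes histidine decarboxylase, the only step of histamine synthesis, and lies on 2R from 10237988 to 10246077 (plus strand, dm6 coordinates). It had 618, 623 and 552 normalized counts in the deepest, middle and shallowest mutant libraries, against 1935, 1428 and 1412 in the control libraries in the same order. Every mutant library was below every control library, and the spread within the mutant was small. The means were 598 ± 39.6 in the mutant and 1592 ± 298 in the control (SD, n = 3 each), so that the mutant held 37.5% of the control level. The authors' deposited table gives a log2 fold change of -1.41 with an adjusted p of 2.5e-08. These values rest on 371 to 601 reads per mutant library and 1417 to 3333 reads per control library.

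The fall of Hdc had the same direction in both sets of libraries. On the scale of log2(normalized count + 1) it was -1.65 within the deepest library of each genotype and -1.27 within the other 4 libraries. A fit by limma across all recovered genes, in which 0.992% of genes were called, gave -1.40 (SE 0.18, 95% interval -1.83 to -0.96, adjusted p = 0.0262). The adjusted p by limma lay between 0.0344 and 0.154 when each library was left out, and the call was kept only without the deepest control library. In the annotation 158 exon bases of Hdc are shared with the noncoding RNA gene lncRNA:CR45265 on the opposite strand, which was not analysed here. Another 7 bases are shared with CG12209, whose authors' means were 0.899 in the mutant and 0.697 in the control.

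lovit, listed in the table under the name CG45782 and matched by its gene identifier, encodes the transporter that loads histamine into photoreceptor vesicles. The gene spans 3L from 25236940 to 25670980 (minus strand), mostly intron, with 1967 bases of gene length in the table. Its normalized counts were 426, 569 and 567 in the deepest, middle and shallowest mutant libraries, against 2091, 2023 and 1837 in the control libraries. All control libraries were above 3 times the highest mutant library, and the deepest mutant library was the lowest of its genotype. The means were 521 ± 81.6 in the mutant and 1984 ± 131 in the control (SD, n = 3 each), and the authors' deposited table gives a log2 fold change of -1.93 (adjusted p = 3.7e-18). By p-value lovit ranked 21 among the 11155 tested genes, Hdc ranked 59 and HisCl1 ranked 161. limma gave -1.94 (SE 0.18, adjusted p = 0.00677, and from 0.0107 to 0.0674 when each library was left out).

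CarT, the carcinine transporter of photoreceptors, lies on 2L from 20727151 to 20730282 (minus strand). It had 2017, 849 and 836 normalized counts in the deepest, middle and shallowest mutant libraries, against 1312, 975 and 909.7 in the control libraries. The deepest mutant library was above all controls and the other mutant libraries were below all of them, so no direction holds. With means of 1234 ± 678 in mutant heads and 1066 ± 216 in control heads (SD, n = 3 each), the authors' deposited table gives a log2 fold change of 0.21 (adjusted p = 0.948). It was 0.62 in the deepest libraries and -0.16 in the other 4. The mutant mean was 843 without its deepest library, against 942 in the control without its deepest library. limma's 95% interval ran from -0.78 to 0.98.

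t encodes tan, the hydrolase that frees histamine from carcinine in the photoreceptor, and lies on X from 9217655 to 9223257 (minus strand), the same chromosome as mir-210. Its normalized counts were 6381, 5020.2 and 4748 in the deepest, middle and shallowest mutant libraries, against 11012, 6159.9 and 6183 in the control libraries. The deepest library was the highest in each genotype, and only that of the mutant reached into the control range. With means of 5383 ± 875 in mutant heads and 7785 ± 2795 in control heads (SD, n = 3 each), the authors' deposited table gives a log2 fold change of -0.53, which did not pass (adjusted p = 0.586). It was -0.79 in the deepest libraries and -0.34 in the other 4. With the deepest library of each genotype as a term in the limma fit the value was -0.49 (adjusted p = 0.0141), a setting under which 16% of all genes were called. The adjusted p was 0.138 without the deepest libraries and lay between 0.338 and 0.957 with single libraries left out.

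e encodes ebony, the glial enzyme that joins histamine to beta-alanine and also acts in cuticle tanning. It lies on 3R from 21229839 to 21237177 (minus strand). Its normalized counts were 5144, 5314 and 5728 in the deepest, middle and shallowest mutant libraries, against 4955, 4866 and 5805 in the control libraries. The ranges overlapped almost fully, and ebony had the smallest relative spread of the genes that were not called. The means were 5396 ± 300.2 in the mutant and 5209 ± 518 in the control (SD, n = 3 each), and the authors' deposited table gives a log2 fold change of 0.05 (adjusted p = 0.975), which became -0.11 when the group means were scaled to equal totals. limma's 95% interval ran from -0.30 to 0.41.

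HisCl1 encodes a histamine-gated chloride channel found in photoreceptor terminals and in glia of the lamina, the first visual neuropil. It lies on 3R from 11787176 to 11789393 (plus strand). It had 248, 250.5 and 214 normalized counts in the deepest, middle and shallowest mutant libraries, against 427, 444 and 414 in the control libraries. Every mutant library lay below every control library, and the deepest libraries did not stand apart. The means were 237 ± 20.2 in the mutant and 429 ± 14.6 in the control (SD, n = 3 each), and the authors' deposited table gives a log2 fold change of -0.85 with an adjusted p of 0.000202. limma gave almost the same value, -0.85 (SE 0.15), but not a call (adjusted p = 0.0691). With the deepest library of each genotype left out, limma called it (-0.89, adjusted p = 0.0130), and 7.58% of all genes were called in that fit. With single libraries left out its adjusted p lay between 0.111 and 0.348. The values rest on 144 to 241 reads per mutant library and 416 to 736 reads per control library. In the annotation 101 exon bases are shared with Sbf on the opposite strand, whose authors' means were 695 in the mutant and 652 in the control (0.09 on the log2 scale in the authors' deposited table).

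ort encodes the other histamine-gated channel, through which lamina and other visual interneurons respond to photoreceptors, and lies on 3R from 19659748 to 19663672 (plus strand). Its normalized counts were 433, 349.7 and 253 in the deepest, middle and shallowest mutant libraries, against 586, 316 and 311 in the control libraries. The genotypes overlapped, and the deepest library was the highest in each. The means were 345 ± 89.9 in the mutant and 404 ± 157 in the control (SD, n = 3 each), and the authors' deposited table gives a log2 fold change of -0.23 (adjusted p = 0.934). Without the deepest libraries the means were 301 in the mutant and 314 in the control. limma's 95% interval, -0.95 to 0.56, includes the size of change seen in HisCl1.

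**Figure D2:**
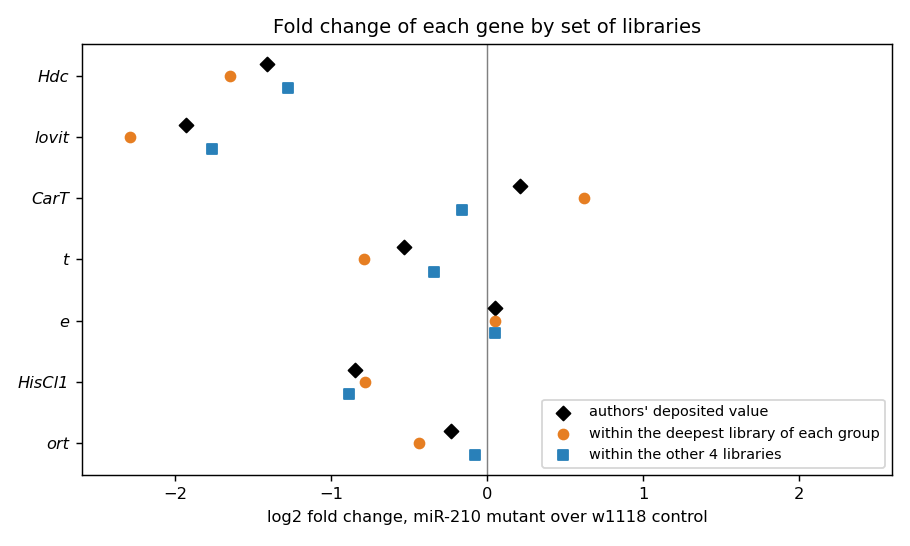
Log2 fold change (horizontal axis, miR-210 mutant over w1118 control) of each gene as deposited by the authors (diamonds), within the deepest library of each genotype (circles) and within the other 4 libraries (squares). Hdc, lovit and HisCl1 keep a negative value in all 3, CarT changes sign between 0.62 and -0.16, and e stays at 0.05.

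The deepest libraries did not differ from the others in the same way for each gene. On the scale of log2(normalized count + 1) the deepest mutant library exceeded the mean of the other mutant libraries by 0.54 for ort, 1.26 for CarT and 0.39 for t, and the deepest control library exceeded the other control libraries by 0.90 for ort, 0.48 for CarT and 0.84 for t. For HisCl1 the differences were 0.10 in the mutant and -0.0049 in the control, and for e they were -0.10 in both. Hdc had 0.07 in the mutant and 0.45 in the control, and lovit had -0.41 in the mutant and 0.12 in the control. The differences of ort, CarT and t were thus larger than those of HisCl1, whose genotypes did not overlap, and of e, whose genotypes did.

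Per kb of gene length, tan was the most abundant transcript of the pathway in both genotypes, and HisCl1 in the mutant and ort in the control had the lowest mean. In normalized counts per kb, tan averaged 2725 ± 443 in the mutant and 3942 ± 1415 in the control, and ebony averaged 1717 ± 95.5 in the mutant and 1658 ± 165 in the control (SD, n = 3 each). CarT averaged 489 ± 269 in the mutant and 422 ± 85.7 in the control, and lovit averaged 265 ± 41.5 in the mutant and 1009 ± 66.7 in the control. Hdc averaged 156 ± 10.3 in the mutant and 416 ± 77.8 in the control. HisCl1 averaged 127 ± 10.8 in the mutant and 229 ± 7.80 in the control, and ort averaged 159.9 ± 41.7 in the mutant and 187 ± 72.9 in the control.

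The order of the levels per kb differed between the genotypes. In the mutant it ran from tan, ebony and CarT to lovit, ort, Hdc and HisCl1, and the 3 mutant libraries of ort (117 to 200.5 per kb) overlapped those of both Hdc (144 to 163) and HisCl1 (114 to 134). In the control it ran from tan, ebony and lovit to CarT, Hdc, HisCl1 and ort. There CarT (361 to 520.1) and Hdc (369 to 506) were not separated, nor were HisCl1 (221 to 237) and ort (144 to 271). The lowest control library of Hdc was above the highest of both receptor genes, which was not so in the mutant.

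**Figure D3:**
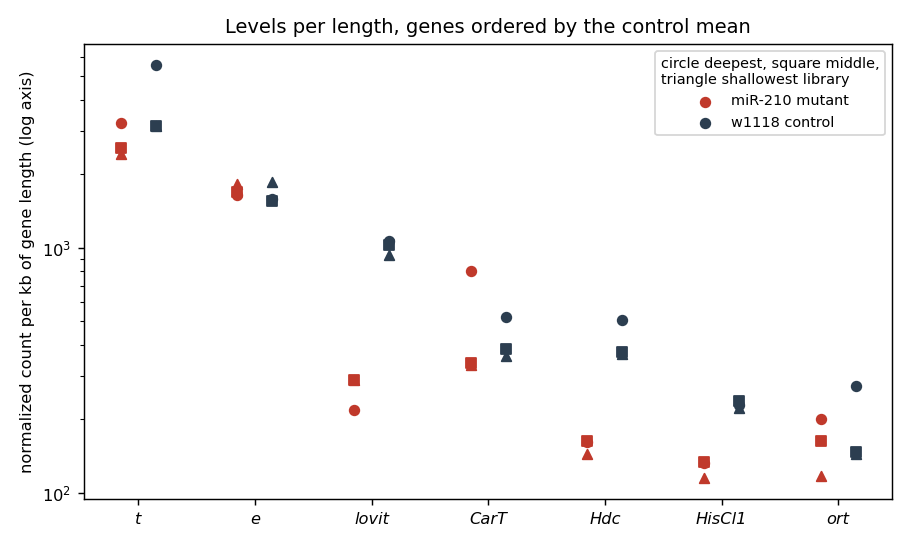
Normalized counts per kb of gene length (vertical log axis) of each gene in each miR-210 mutant library (red, left of each pair) and w1118 control library (dark, right), with genes ordered by the control mean and a symbol for each library. Control levels of lovit (934 to 1063) stand above those of CarT, and its mutant levels (217 to 289) stand below those of CarT.

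Ratios within a library hardly depend on how libraries were scaled. They were taken as differences of log2(normalized count + 1) between 2 genes of the same library, not divided by length, so their sign does not rank the genes, and 7 such ratios were compared by a two-sided exact permutation test over the libraries, whose smallest possible p with 3 against 3 is 0.1. The ratio of Hdc to CarT was -1.71, -0.45 and -0.60 in the deepest, middle and shallowest mutant libraries, against 0.56, 0.55 and 0.63 in the control libraries. The ratio was lower in every mutant library than in every control library (difference -1.50, exact p = 0.1, 0.35 adjusted over the 7 ratios). The ratio of lovit to Hdc was also lower in each mutant library than in each control library, averaging -0.21 ± 0.29 in the mutant and 0.33 ± 0.20 in the control (SD, n = 3 each, exact p = 0.1, adjusted 0.35).

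The ratio of HisCl1 to ort averaged -0.51 ± 0.28 in the mutant and 0.15 ± 0.52 in the control (SD, n = 3 each, exact p = 0.2, adjusted 0.35). The deepest control library, at -0.45, lay among the mutant libraries, so a difference between the responses of the receptor genes is not shown. The ratio of ebony to tan averaged 0.01 ± 0.30 in the mutant and -0.53 ± 0.55 in the control, and its libraries overlapped as well (exact p = 0.2, adjusted 0.35, n = 3 each).

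**Figure D4:**
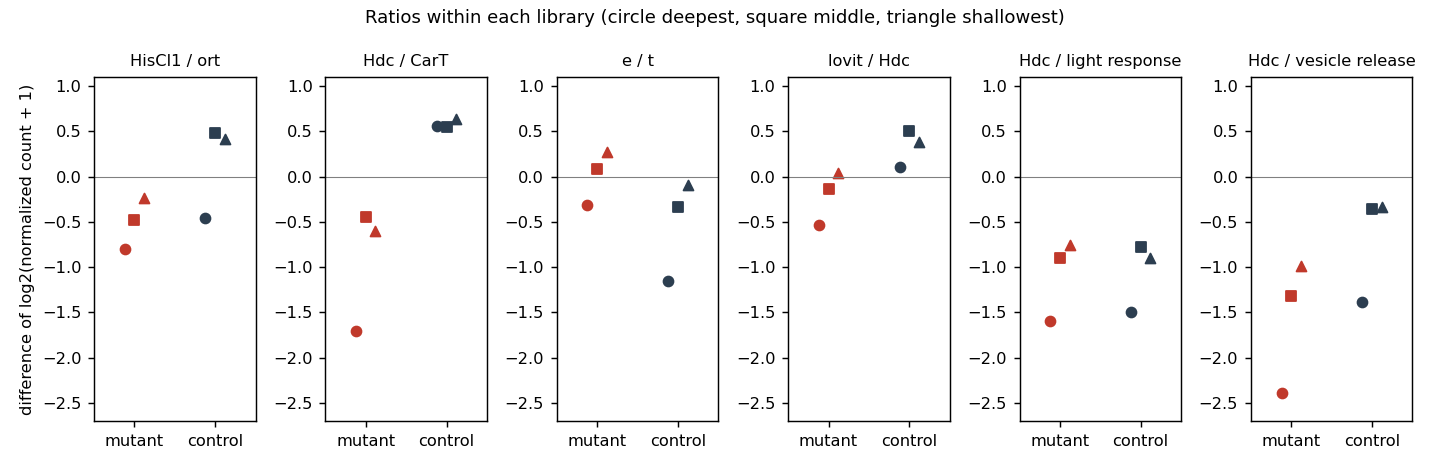
Differences of log2(normalized count + 1) between genes of the same library (vertical axes) in the 3 miR-210 mutant libraries (red, left) and the 3 w1118 control libraries (dark, right), for pairs of pathway genes and for Hdc against the median of 8 phototransduction or 17 vesicle release genes. Hdc over CarT and lovit over Hdc separate the genotypes, and Hdc over the 8 recovered phototransduction genes does not. These 8 leave out genes with a mean above 10000, most of which were called by the authors.

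Hdc was next set against markers of the cells that express it. Phototransduction genes, which mark photoreceptors, were lower in the mutant, with 18 of 24 tested called lower and 0 higher in the authors' deposited table and a median log2 fold change of -1.22, against -0.04 over all tested genes. The 6 with the lowest p were the rhodopsin genes Rh5 (-5.03), Rh2 (-3.36), Rh3 (-2.56) and Rh4 (-3.14) and the light-gated channel genes trpl (-2.59) and trp (-1.08), all from the authors' deposited table. The summed authors' means of the 24 genes were 544474 in the mutant and 1542335 in the control. Over the 8 that were recovered, the sums lay between 9532 and 20947 in mutant libraries and between 31895 and 45080 in control libraries, and none of the genes was at 0. The gap between the sums rested largely on Rh2 and Rh5. Rh2 had 601 to 962 normalized counts in mutant libraries and 7102 to 9292 in control libraries, and Rh5 had 190 to 236 and 5948 to 7643. Galphaq and rdgC did not overlap between the genotypes either, while rdgA, rdgB, Calx and eys overlapped. Among all tested genes that were recovered, 9.21% did not overlap with the mutant lower. limma on all 6 libraries called 2 of the 8 recovered phototransduction genes, and 0.992% of all genes it fitted. The ratio of Hdc to the median of these 8 genes averaged -1.09 ± 0.45 in the mutant and -1.06 ± 0.38 in the control (SD, n = 3 each, exact p = 0.9). That of lovit averaged -1.29 ± 0.74 in the mutant and -0.73 ± 0.58 in the control (exact p = 0.4, n = 3 each, adjusted 0.467). The 8 genes are those with means up to 10000 in both genotypes. Of them rdgA, rdgB, Calx and eys were not called and were highest in the deepest library of each genotype. Most genes left out, such as ninaE, trp, trpl, Arr1 and Arr2, were called. The ratios therefore do not show how Hdc or lovit moved against phototransduction genes as a whole. In RNA of whole heads, fewer photoreceptors and less RNA per photoreceptor cannot be told apart.

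Markers of glia in general and of lamina neurons were then examined. In RNA of whole heads they do not single out the cells on the other side of the photoreceptor synapse. Of 10 glial marker genes tested 1 was lower, alrm, an astrocyte membrane protein gene, with authors' means of 1802 in mutant heads and 3107 in control heads (-0.79 on the log2 scale, adjusted p = 0.00297, authors' deposited table). Among all tested genes 4.46% were called, and 1.89% were called lower. limma on all 6 libraries did not call alrm (adjusted p = 0.131), nor any other of the recovered glial genes. The glial median was 0.06, and the summed counts of the 9 recovered genes lay between 23287 and 29539.9 in mutant libraries and between 24769.8 and 30092 in control libraries. Of 7 transcription factor genes of lamina neurons 0 were called in the authors' deposited table, 0 had an unadjusted p under 0.05 and 0 were called by limma. Their median was -0.05, with sums of 2959 to 5160 in the mutant libraries and 2693 to 5310 in the control libraries. The most abundant were svp (0.31) and ap (0.12), as log2 fold changes of the authors' deposited table. None of the markers of either list was at 0.

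Among 11 partner genes of histamine recycling, 1 fell and 1 rose in the authors' deposited table. The first is lovit, described above. The gene that rose is Inx3, which encodes an innexin, a subunit of gap junctions. It had 2343, 2579.7 and 2383 normalized counts in the deepest, middle and shallowest mutant libraries, against 1519.6, 1742 and 1767 in the control libraries. All mutant libraries were above all control libraries, and the authors' deposited table gives a log2 fold change of 0.54 (adjusted p = 0.0212). limma on all 6 libraries did not call Inx3 (adjusted p = 0.214), and without the deepest libraries it did (adjusted p = 0.0458). Of all tested genes 2.56% were called higher and 1.89% lower, and 18.3% of those recovered did not overlap, in either direction. The other 9 were not called. They are the innexin genes ogre and Inx2, the vesicular transporter genes prt and Vmat, the transporter gene ine, and 4 genes of beta-alanine supply, b, su(r), pyd3 and CRMP, with log2 fold changes from -0.35 to 0.45. The median over the 11 was 0.11, with 5 values below 0.

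The eye pigment transporter genes bw and st, which work with white, were not called (log2 fold changes 0.06 and 0.63 in the authors' deposited table). For these and w, the counts were 0 called of 3 tested, 0 with an unadjusted p under 0.05 and 0 called by limma. Of 8 genes of cuticle tanning and pigmentation, 1 was lower in the authors' deposited table, the pigmentation gene y (yellow). It had 88.4, 113 and 119 normalized counts in the deepest, middle and shallowest mutant libraries, against 369, 286 and 361 in the control libraries. The genotypes did not overlap (-1.67 on the log2 scale, adjusted p = 6.0e-09, authors' deposited table). limma on all 6 libraries also called y (adjusted p = 0.0187). Of all tested genes 4.46% were called and 1.89% were called lower, and 9.21% of those recovered did not overlap with the mutant lower.

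Other transmitter systems and channels were then compared. Among all genes, 4.46% of those tested were called in the authors' deposited table, and limma called 0.992% of those it fitted. In lists as short as these, 0 called is near those shares. Of 13 genes for synthesis and transport of other transmitters, 0 were called in the authors' deposited table, 0 had an unadjusted p under 0.05 and 0 were called by limma, with a median of -0.23. The most abundant were Gad1, for GABA synthesis (-0.06), and Ddc, for dopamine and serotonin synthesis (-0.28). Of 9 tested ligand-gated chloride channel genes related to HisCl1 and ort, likewise 0 were called, 0 had an unadjusted p under 0.05 and 0 were called by limma. Their median was -0.35, and the most abundant were the glutamate-gated channel gene GluClalpha (-0.78) and Rdl, with authors' means of 503 in mutant heads and 1006 in control heads. GluClalpha had 1901 normalized counts in the deepest mutant library and 704 and 476 in the others, against 3259 in the deepest control library and 941 and 1093 in the others, so its deepest library was the highest of each genotype, as for Rdl.

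Of 18 tested genes of synaptic vesicle release, 0 were called in the authors' deposited table, 2 had an unadjusted p under 0.05, both lower, and 0 were called by limma. Their median was -0.47, and 17 of the 18 values were below 0, against 6051 of all 11155 tested genes. The authors called 4.46% of all tested genes and limma 0.992%, so 0 called in a list this short is near those shares. Each of the 17 recovered genes was highest in the deepest library of its genotype, as for Rdl. brp, for example, had 3064 normalized counts in the deepest mutant library and 924 and 501 in the others. In the control it had 5063 in the deepest library and 1099 and 1195 in the others. The most abundant were cpx (-1.25, adjusted p = 0.382) and nSyb (-0.79, adjusted p = 0.133), which encode complexin and the vesicle SNARE protein, both in the authors' deposited table. The ratio of Hdc to the median of 17 recovered release genes averaged -1.57 ± 0.73 in the mutant and -0.69 ± 0.60 in the control (SD, n = 3 each, exact p = 0.3, adjusted 0.42).

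**Figure D5:**
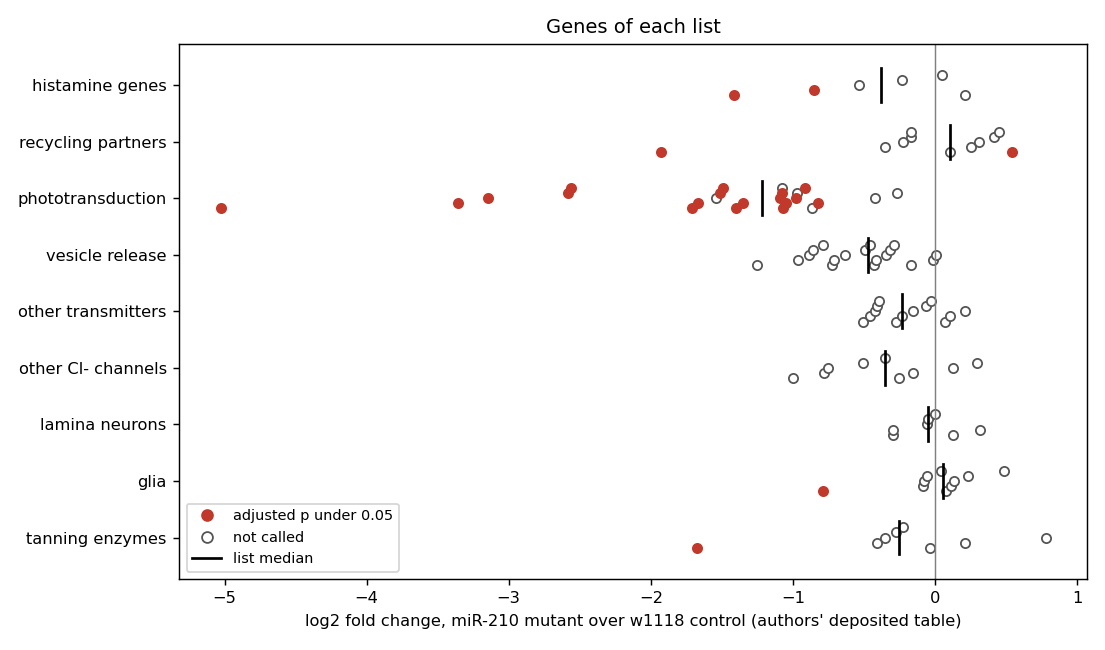
Log2 fold changes (horizontal axis, miR-210 mutant over w1118 control, authors' deposited table) of the tested genes of each list, with called genes filled and list medians as bars. The phototransduction median lies at -1.22, that of the 6 histamine genes at -0.38 and those of the glia and lamina neuron lists near 0.

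The genes whose pattern over the 6 libraries was most like each member were found by Pearson r of log2(normalized count + 1), among 8242 other genes whose mean reached 50. This is a description only: the libraries fall into 2 genotypes, so a high r for a called gene largely restates its genotype difference. Nearest to Hdc were CG4660 (r = 0.999), CG7456 (0.997) and CG31038 (0.993), of which CG4660 had authors' means of 136 in mutant heads and 546 in control heads. The authors' deposited table gives -0.39 and -0.67 on the log2 scale for CG7456 and CG31038, and CG7456 was not called (adjusted p = 0.147). Nearest to HisCl1 were the myosin gene Myo28B1 (0.997, log2 fold change -3.18), Nf-YA (0.995, -0.63) and Crg-1 (0.995, -4.61). Nearest to lovit were Ttd14 (0.997, -1.03), CG4650 (0.996, -7.11) and CR32553 (0.995, -6.28), the noncoding RNA beside mir-210.

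The nearest genes of the members that were not called were not called either, which holds for most genes, since 4.46% of all tested genes were called. For ort they were HEATR2 (0.995), CG9684 (0.993) and Fak (0.992), and 554 genes had an r above 0.95 with ort, the most of any member. For tan they were flw (0.998), CG16974 (0.995) and Ank2 (0.991). CarT had CG42741 (0.989), CG4822 (0.982) and Ada2b (0.981), and ebony had Lpt (0.982), Sf3b1 (0.971) and Nup93-1 (0.956), with 4 genes above 0.95. Among the members, Hdc and HisCl1 had an r of 0.97, ort and tan of 0.88, and Hdc and CarT of -0.0011. Hdc and HisCl1 had r of 0.97 and 0.96 with lovit.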

How the data were processed

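The authors' deposited table holds, for each genotype, a mean signal (read counts divided by size factors, averaged over libraries), a log2 fold change, a p-value and an adjusted p-value, per the file headers. The submitters' processing notes list FastQC, HISAT2, featureCounts, DESeq and build dm6, giving no role for any. Strandedness is not given in the sources used here. The deposited adjusted p-values are those of a Benjamini-Hochberg adjustment over 11155 genes, and 2386 genes listed at 1 were treated as not tested. A count test could not be run on deposited means, so calls are the authors'. They were made at an adjusted p under 0.05.

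Each mean up to 10000 was written as whole reads in 3 libraries times 3 steps, found from low means. Exactly 1 solution was found for 13193 of 13193 mutant and 13225 of 13225 control means, and 97.3% of genes were recovered in all 6 libraries. limma 3.58.1 (R 4.3.3; trend, robust) was fitted to log2(normalized count + 1) of genes whose mean reached 1, which understates changes of low genes. Both steps were run on simulated data. The simulated reads for the recovery did not reach the highest means searched. Those for limma held no shift of the deepest libraries, so they do not show how limma behaves with it. Gene identifiers paired 4 listed names with other names in the table, and 99.4% of coordinates equalled those of BDGP6 (dm6) annotation.

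Members and lists were chosen with earlier results of these data known. Named were all members, called genes of each list (the 6 lowest p where more), otherwise its 2 most abundant genes, and the 3 genes most like each member. CR32553, Sbf, CG12209 and w were added as checks, and uncalled recycling partners are named as a group. ninaA, stnA and stnB were not analysed here.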

Additional observations from a re-analysis of the deposited data

How the results depend on the processing

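No paired analysis was possible because the recovered libraries carry no replicate number. Comparisons within sets of libraries, list counts without the deepest libraries and all alternatives for lovit were chosen after seeing the data. The cause of each change below was not tested. The number of members called was 2 at an adjusted p under 0.01 or 0.1 of the authors, with adjustment over every row and with both means of at least 10, and 1 (Hdc) with limma, whether with a pseudocount of 1 or 0.5, no filter on low values or equal totals. It ranged from 0 to 1 when each library was left out, with limma then calling 23 to 75 genes in all. With the deepest library of each genotype as a term in limma it was 3, in a fit that called 16% of all genes. The adjusted p was then 2.8e-05 for Hdc and 0.0012 for HisCl1, and t was the third. Without the deepest libraries 2 members were called, Hdc and HisCl1. Hdc ranged from -1.48 to -1.25 on the log2 scale when each library was left out (adjusted p from 0.0344 to 0.154), and was -1.65 within the deepest libraries. HisCl1 ranged from -0.89 to -0.78 (adjusted p from 0.111 to 0.348). It was -0.85 by limma with either pseudocount or no filter (adjusted p from 0.0691 to 0.0808), -0.87 with libraries at equal totals (0.0837) and -1.01 with group means at equal totals, a scaling that lowers every log2 value by 0.16. It was called without the deepest libraries (adjusted p = 0.013). lovit ranged from -2.01 to -1.80 (adjusted p from 0.0107 to 0.0674), and was -2.29 within the deepest libraries. CarT ranged from -0.32 to 0.32 and was -0.16 without the deepest libraries. ort ranged from -0.38 to 0.10, e from 0.01 to 0.13 and t from -0.63 to -0.21; e was -0.11 at equal group totals, and t was -0.49 and called with the deepest library as a term. Without the deepest libraries, where 7.58% of all genes were called, limma called 2 of 10 chloride channel, 2 of 17 vesicle release, 1 of 13 other transmitter and 2 of 8 tanning genes, and 5 of the 8 recovered phototransduction genes, against 18 of 24 in the authors' table. HisCl1 in the shallowest mutant library rests on 144 reads.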
